A study of Mus musculus with 2 samples.

Results

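The interferon-inducible GTPases are a group of proteins that mouse cells make in large amounts after an interferon signal. The 10 genes described here are Igtp, Irgm1, Irgm2, Iigp1 and Tgtp1 of the immunity-related GTPases (IRGs), and Gbp2, Gbp3, Gbp4, Gbp6 and Gbp7 of the guanylate-binding proteins (GBPs). They were chosen by gene name after the knockout over wild type ratios of these same arrays were known, so those ratios are a description, and a test that used them again would be no independent evidence. The 10 genes carried 13 of the 41174 gene probes on each array, and 12 of the 13 were above the detection limit. In all, 18988 genes or unnamed probes could be compared, and each of the 10 is among them.

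The series set intestinal total RNA of gut-specific GDE5 (Gpcpd1) deficient mice against that of wild-type mice, and so asks how transcripts of the gut change without this enzyme, which acts on glycerophosphocholine to free choline. All animals were C57BL/6 males of 20 weeks on a normal diet, and the series text speaks of 5 mice. The promoter that restricts the deletion to the gut, the deleted part of the gene and any pooling of animals are not given in the sources used here. Both genotypes were hybridised together on each of 2 dual-colour Agilent arrays. The RNA labelled knockout carried the dye Cy3 in replicate 1 and Cy5 in replicate 2, and the RNA labelled wild type carried the other dye. Whether one RNA extract served both arrays is not stated, so the spread between the arrays may be technical. In RNA from whole tissue, fewer cells of a type and less RNA per cell cannot be told apart.

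IRGs and GBPs are known from infection with intracellular parasites and bacteria. Interferon gamma is their strongest inducer, and type I interferons induce many of them too. Effector IRGs and GBPs gather on the membrane around a parasite or bacterium and break it open, while regulatory IRGs sit on the cell's own membranes and hold the effectors inactive there. In the gut, Paneth cells, enterocytes and immune cells of the mucosa can all express them.

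Promoter sequence is shown first, because the DNA elements GAS and ISRE carry an interferon signal to a gene. Windows from 250 bases before to 50 bases from the start site were taken from RefSeq (GRCm38.p6) for 7 of the 10 genes; Gbp3 has 2 such windows, and Iigp1, Gbp4 and Gbp6 had no entry. The letters TTCNNNGAA were searched for GAS and GAAANNGAA for the core of ISRE, on both strands, and no GAS match overlapped an ISRE match. In Igtp (chr11:58199499-58199542, plus strand), Irgm2 (chr11:58214890-58214933, plus strand) and Tgtp1 (chr11:48992303-48992346, minus strand) both motifs lie side by side. They are printed along the gene's strand with the motif letters in capitals.
Igtp: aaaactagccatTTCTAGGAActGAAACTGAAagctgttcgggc
Irgm2: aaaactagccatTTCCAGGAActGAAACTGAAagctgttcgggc
Tgtp1: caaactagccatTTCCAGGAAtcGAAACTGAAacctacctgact

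In all 3 of these promoters the first base of the ISRE letters lies 11 bases after the first base of the GAS letters, with 2 bases between the motifs. The GAS letters begin 45 bases before the start site in Igtp, 75 bases before it in Irgm2 and 88 bases before it in Tgtp1. The Igtp and Irgm2 windows share an unbroken run of 61 bases, and Tgtp1 shares 20 bases with Irgm2 and 14 with Igtp. Irgm1 (chr11:48871424-48871462, minus strand) holds 2 overlapping ISRE matches and no GAS letters. Gbp7 (chr3:142530218-142530304, plus strand) holds 2 GAS matches and an ISRE match read on the other strand as TTCNNTTTC, and Gbp3 (chr3:142559988-142560026, plus strand) and Gbp2 (chr3:142620593-142620625, plus strand) hold ISRE letters on the other strand only. These 4 are shown to set the arrangements apart.
Irgm1: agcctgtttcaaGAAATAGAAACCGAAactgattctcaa
Gbp7: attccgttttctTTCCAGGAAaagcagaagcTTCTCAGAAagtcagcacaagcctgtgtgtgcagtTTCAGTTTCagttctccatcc
Gbp3: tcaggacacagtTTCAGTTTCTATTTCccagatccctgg
Gbp2: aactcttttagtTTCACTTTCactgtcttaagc

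ISRE letters were thus in 7 of the 7 genes with a window, and GAS letters in 4 of the 7, the same 4 that hold both. Of all 27025 genes with a window, 9.76% hold the ISRE letters, 9.55% the GAS letters and 1.24% both in the same window. By window, ISRE letters were in 7 of 8 and GAS letters in 4 of 8, as the second Gbp3 window holds neither. Of all 32851 RefSeq windows of this length, 8.56% hold the ISRE letters, 8.3% the GAS letters and 1.07% both. A match is a run of letters in the window, not a measured binding site.

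**Figure D1:**
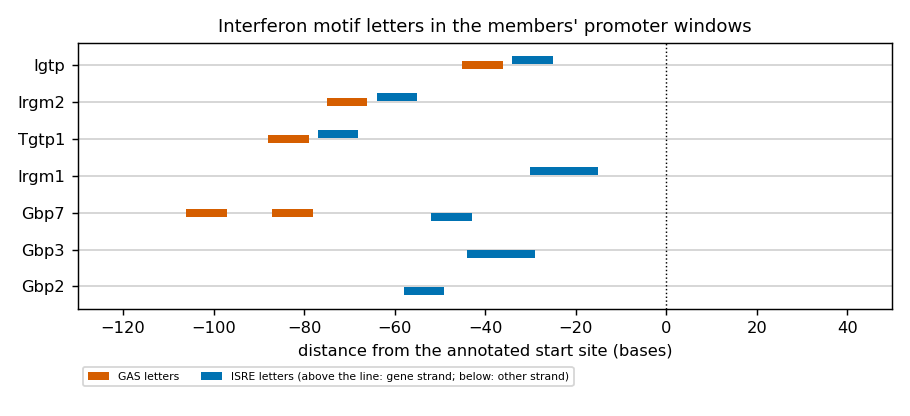
Position of GAS letters (orange) and ISRE letters (blue; above the line on the gene's strand, below it on the other strand) in bases from the annotated start site (dotted line), for the 7 genes with a RefSeq window. All matches lie between 106 bases before the start site, the first GAS match of Gbp7, and the start site itself, and Igtp, Irgm2 and Tgtp1 show the same paired spacing.

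Gpcpd1 itself was higher, not lower, in the RNA labelled knockout at 3 of its 4 probes, with mean log2 ratios of 0.68 ± 0.56, 0.62 ± 0.08 and 0.47 ± 0.25, and at -0.13 ± 0.43 at the fourth (SD over n = 2 arrays). A probe outside the deleted part would check nothing, but every direction given here rests on the dye labels alone. Spots well above background, as the scanner software marks them, made up 69.3% to 76.1% of gene spots per genotype and array, no spot was saturated, and no spot of the 10 genes was marked as an outlier. Markers of absorptive epithelium were well above background for all 10 listed genes. Over all genes the ratios of the arrays correlated at r = -0.38 (genes are not independent replicates). The correlation was -0.02 in the scanner software's processed ratios and -0.17 with a surface over the array removed. On both arrays, 199 genes passed 1.5-fold in one dye direction, against 41 that did so in one genotype direction. Of the 199, 196 were brighter in Cy3 and 3 in Cy5. Precision is limited by there being 2 arrays.

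All ratios are log2 ratios of RNA labelled knockout over RNA labelled wild type, intensities are background-corrected and normalized within each array, and means carry the SD of the 2 arrays. Of the 10 GTPase genes, 9 were higher on both arrays in the RNA labelled knockout, 0 were lower on both, and Iigp1 went opposite ways. Over all 18988 genes, 16.9% were higher on both arrays and 18.1% lower on both. Igtp and Tgtp1 were at least 1.5-fold higher on both, as were 0.158% of all genes, a share that ran from 0.0737% with outlier spots kept to 0.548% in the software's processed ratios. The median mean ratio of the 10 was 0.43, with 0.66 in replicate 1 and 0.35 in replicate 2, against -0.01 over all genes. In limma's fit over all genes, with Benjamini-Hochberg adjustment, 0% passed an adjusted p under 0.05, none of the 10 among them, and nothing is read from this for the 10; the smallest adjusted p of any gene was 0.453, and 236 genes had an unadjusted p under 0.05. With the scanner software's processed ratios limma called 39 genes.

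**Figure D2:**
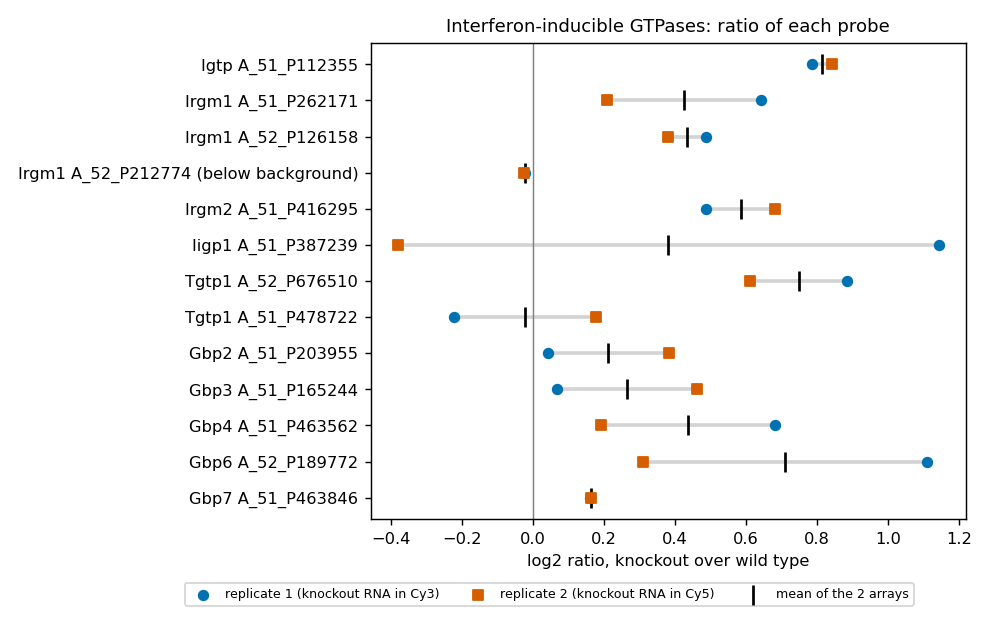
Log2 ratio of RNA labelled knockout over RNA labelled wild type for each of the 13 probes (circles replicate 1, squares replicate 2, bars the mean of the 2 arrays). The arrays lie close together for Igtp and Gbp7 and on either side of 0 for Iigp1 and the dimmer Tgtp1 probe; the Irgm1 probe marked as below background was not used.

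The regulatory IRGs were higher on both arrays. Igtp, also called Irgm3, keeps effector IRGs off the endoplasmic reticulum and lipid droplets. Its probe (A_51_P112355, chromosome 11, 58020927 to 58020986, mm9) read 5829 for knockout against 3384 for wild type in replicate 1, and 5732 against 3201 in replicate 2. Both knockout values lie above both wild-type values, and the arrays differ little. A gene whose genotypes separate in this way is also higher on both arrays, as were 16.9% of all genes. The share of all genes so separated was not counted, and intensities were normalized within each array, not between the arrays. Here and below the separation therefore only describes the values. Igtp was 1.76-fold higher, with log2 ratios of 0.78 and 0.84 (0.81 ± 0.04). Its smaller ratio was the 12th highest of the 18988, which only describes a gene chosen with these ratios known. The same rank ran, in the others, from 24 for Tgtp1 to 2098 for Gbp2 and 16492 for Iigp1. In the scanner software's processed ratios Igtp stood at 0.91 and 0.74.

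Irgm2, a regulator found on the Golgi, is the neighbour of Igtp on chromosome 11. Its probe (A_51_P416295, 58036064 to 58036123, mm9) read 5146 against 3670 in replicate 1 and 5306 against 3308 in replicate 2, knockout first. The genotypes did not overlap. The log2 ratios were 0.49 and 0.68 (0.58 ± 0.14, 1.5-fold as the mean), so that replicate 1, at 1.40-fold, falls short of 1.5-fold. The processed ratios of Irgm2 were further apart, at 0.24 and 0.82.

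Irgm1, a regulator of the Golgi, mitochondria and lysosomes with a part in autophagy, has 3 probes. The brightest (A_51_P262171, 48679069 to 48679128, mm9) read 4246 against 2722 in replicate 1 and 3529 against 3054 in replicate 2. The knockout values were again the higher, by less in replicate 2. Its log2 ratios were 0.64 and 0.21 (0.42 ± 0.31), and those of the second probe (A_52_P126158) were 0.49 and 0.38 (0.43 ± 0.07). The probes thus gave the same mean with a different spread. The remaining probe, designed on another transcript, was not well above background in either genotype on either array, at 61.3 and 62.2 in replicate 1 and 60.7 and 61.8 in replicate 2.

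Of the effector IRGs, Tgtp1 was higher on both arrays at its brighter probe, and Iigp1 went opposite ways. Tgtp1, also called Irgb6, is one of the first effectors to load onto a parasite's vacuole. Its brighter probe (A_52_P676510, 48800173 to 48800232, mm9) read 2084 for knockout and 1129 for wild type in replicate 1, against 2254 and 1476 in replicate 2. The genotypes did not overlap. The log2 ratios were 0.88 and 0.61 (0.75 ± 0.19, 1.68-fold), and 0.69 and 0.71 in the processed ratios.

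The second Tgtp1 probe (A_51_P478722), which lies nearer the end of the transcript, gave no such difference. It read 214 against 250 in replicate 1 and 247 against 218 in replicate 2, with log2 ratios of -0.22 and 0.18 (-0.02 ± 0.28), so the probes of this gene disagree. Their first 30 bases are shown because each probe is listed for Tgtp1 and for its near-identical neighbour Tgtp2, so the values cannot be assigned to one of these genes; they begin at bases 1407 and 1993 of the transcript the array design names.
A_52_P676510: actgcagccaatgatgccatagctcttctg
A_51_P478722: cattaataaccccatgtgctaaccaaaccc

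Iigp1, also called Irga6, is the effector whose structure and vacuole loading are best described, and it is the only gene of the 10 that lies on chromosome 18. In replicate 1 it read 2681 for knockout and 1215 for wild type, and in replicate 2 it read 1493 and 1943. The knockout was thus 2.21-fold higher on the first array and the wild type 1.30-fold higher on the second. The log2 ratios were 1.14 and -0.38 (0.38 ± 1.08), which is no direction beyond the spread between the arrays. On both arrays the channel labelled with Cy3 was the brighter one for Iigp1.

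**Figure D3:**
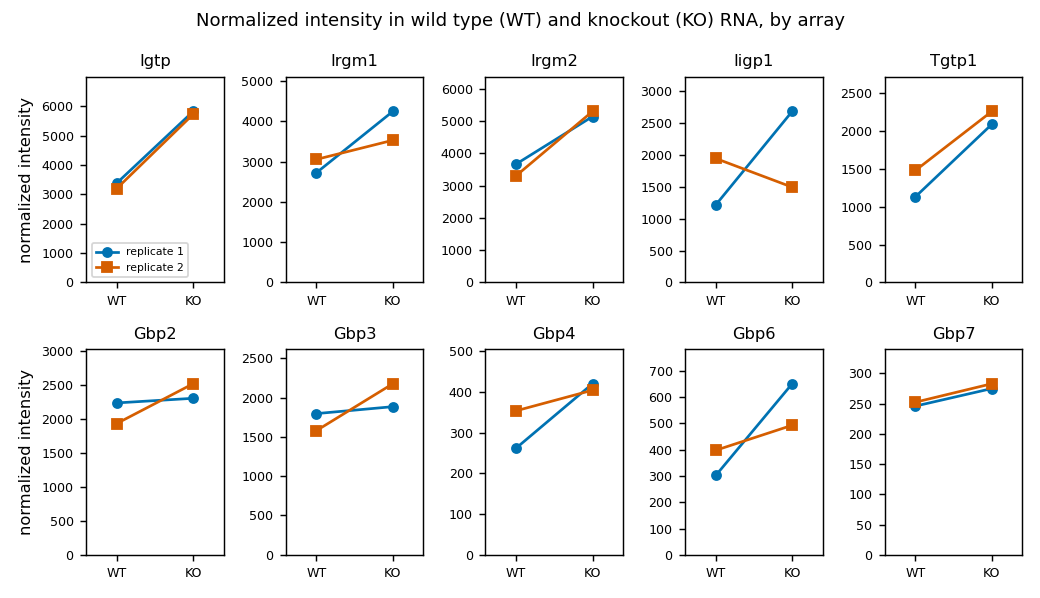
Normalized intensity of the brightest probe of each of the 10 genes in RNA labelled wild type (WT) and knockout (KO), a line per array (circles replicate 1, squares replicate 2); each panel starts at 0 and has its own scale. Lines of both arrays slope upward from WT to KO for 9 genes, and for Iigp1 they slope opposite ways.

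All 5 GBPs were higher on both arrays, and none by 1.5-fold on both. Gbp2, a lipid-anchored GBP that coats vacuoles and bacteria and promotes inflammasome activation, read 2301 in the RNA labelled knockout and 2233 in the RNA labelled wild type in replicate 1. It read 2516 and 1931 in replicate 2 (A_51_P203955, chromosome 3, 142300719 to 142300778, mm9). The first array hardly separated the genotypes, with a log2 ratio of 0.04, and the second gave 0.38 (0.21 ± 0.24, 1.16-fold). Gbp3, of the same cluster, followed the same course at 1883 against 1795 in replicate 1 and 2175 against 1579 in replicate 2, with log2 ratios of 0.07 and 0.46 (0.27 ± 0.28). Neither gene's genotypes overlapped, but for both the mean is smaller than the SD.

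Gbp7, from the same chromosome 3 cluster, has been linked to oxidase assembly and autophagy at bacterial vacuoles. It read 275 against 246 in replicate 1 and 283 against 252 in replicate 2 (A_51_P463846, 142209379 to 142209438, mm9). Its log2 ratios of 0.16 and 0.16 (0.16 ± 0.003, 1.12-fold), with no overlap of the genotypes, gave the smallest mean and the smallest spread of the 10. With 2 values such an SD says little, since probes printed 10 times on an array had a median SD of 0.18 in replicate 1 and 0.12 in replicate 2.

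The chromosome 5 genes differed more between the arrays. Gbp6 read 650 for knockout and 302 for wild type in replicate 1, against 492 and 397 in replicate 2 (A_52_P189772, 105700081 to 105700140, mm9). The genotypes did not overlap, but the log2 ratio was 1.11 on one array and 0.31 on the other (0.71 ± 0.57, 1.64-fold). In the processed ratios, 0.79 and 0.68, Gbp6 was past 1.5-fold on both. Gbp4 read 420 against 262 in replicate 1 and 404 against 354 in replicate 2 (A_51_P463562, 105547080 to 105547139, mm9), with log2 ratios of 0.68 and 0.19 (0.44 ± 0.35). Its genotypes did not overlap either.

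By family, the 5 IRGs had a median mean ratio of 0.58, with a range of 0.38 to 0.81, and the 5 GBPs one of 0.27, with a range of 0.16 to 0.71. The ranges overlap. By mean ratio the order was Igtp, Tgtp1, Gbp6, Irgm2, Gbp4, Irgm1, Iigp1, Gbp3, Gbp2 and Gbp7, and each step between neighbours was smaller than the larger of their SDs. Replicate 1 gave the higher ratio for Irgm1, Iigp1, Tgtp1, Gbp4 and Gbp6, and replicate 2 for Igtp, Irgm2, Gbp2, Gbp3 and Gbp7. The 10 therefore did not share a dye direction in the values as reported. Their largest dye differences did lie toward Cy3, with a mean log2 ratio of Cy5 over Cy3 of -0.76 for Iigp1, -0.40 for Gbp6, -0.24 for Gbp4 and -0.22 for Irgm1. The highest toward Cy5 was 0.20, for Gbp3. With median centring in place of loess, replicate 1 gave the higher ratio for all 10, among them Irgm2 (0.60 and 0.46) and Gbp2 (0.19 and 0.14). The part of the dyes in these ratios was not tested. Across all genes, 196 of the 199 past 1.5-fold in one dye direction were brighter in Cy3.

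**Figure D4:**
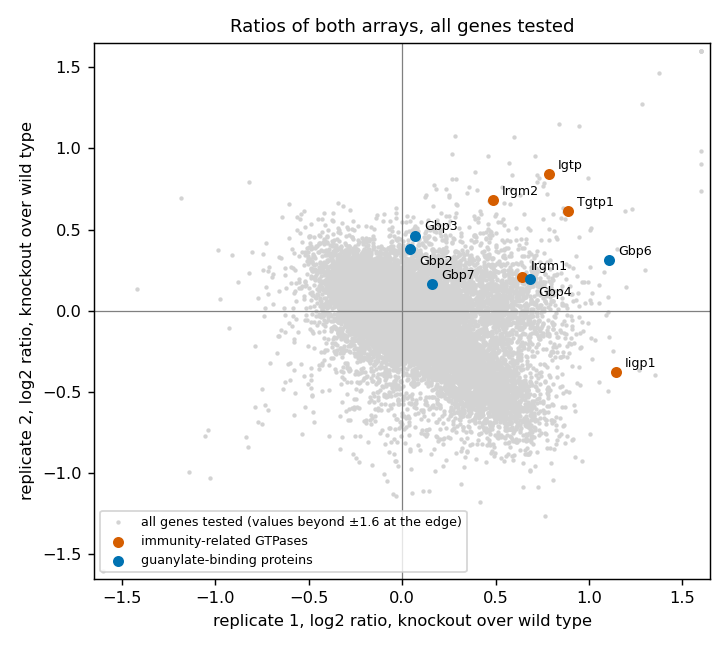
Log2 ratio in replicate 2 against replicate 1 for all 18988 genes tested (grey; values beyond the axis range are drawn at its edge), with the 5 IRGs (orange) and 5 GBPs (blue). The grey cloud slopes downward (r = -0.38, against -0.02 in the scanner software's processed ratios), and 9 of the 10 genes lie in the upper right, where both arrays gave a higher value in the RNA labelled knockout.

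The mean ratios of the 10 kept their sign under 9 other ways of processing that use both arrays. These ways are not independent. Leaving out the filter on dim probes changed none of the 10 values, and averaging probes changed only Irgm1 and Tgtp1. The value table holds the processed ratios rounded. Over the 9 ways, Igtp ranged from 0.76 to 0.83, Irgm2 from 0.53 to 0.59, Irgm1 from 0.37 to 0.44 and Iigp1 from 0.29 to 0.38. Tgtp1 ranged from 0.36, with both of its probes averaged, to 0.76. Among the GBPs, Gbp6 ranged from 0.59 to 0.80, Gbp4 from 0.34 to 0.51, Gbp3 from 0.20 to 0.27, Gbp2 from 0.16 to 0.25 and Gbp7 from 0.08 to 0.20. The number higher on both arrays was 7 with median centring in place of loess, where Irgm1 and Gbp4 went opposite ways, and 7 with a normexp offset of 0, where Gbp2 and Gbp3 did. Iigp1 went opposite ways under each. The 7 with median centring include Gbp7 at 0.00038 in replicate 2. The 9 with outlier spots kept include Gbp4 at 0.0028 and Gbp7 at 0.0048 in replicate 2.

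**Figure D5:**
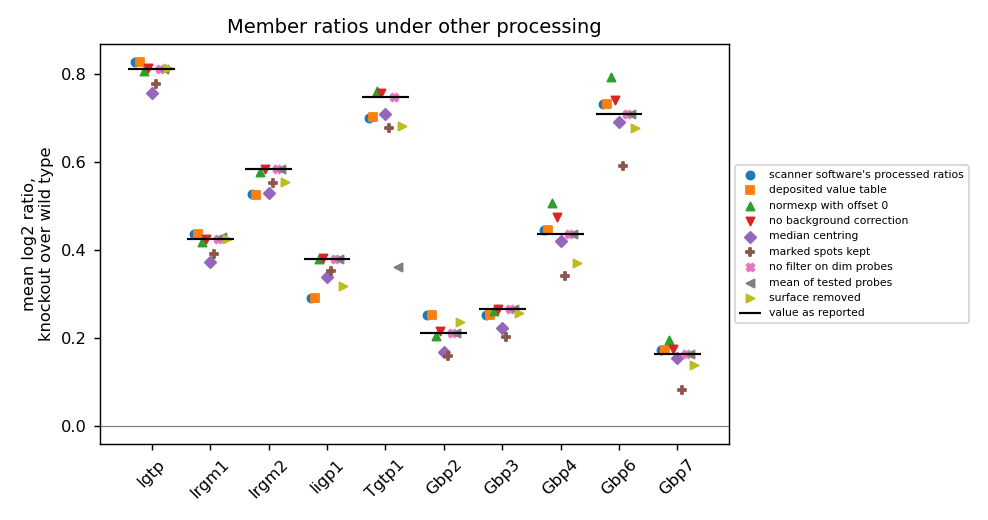
Mean log2 ratio of the 2 arrays for each of the 10 genes under 9 other ways of processing (symbols) beside the value as reported (black bar). No symbol lies below 0; the lowest for Tgtp1, 0.36, averages its probes.

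The genes lie in 5 clusters, which the RefSeq table orders by position, and their neighbours outside the families were looked at on the same arrays. Of 16 measured family genes inside the clusters, the 10 included, 13 were higher on both arrays and 1 lower on both, with a median of 0.39. The 10 were chosen with these ratios known, so the count describes the clusters and tests nothing. Of the others, Ifi47, Gm12250, Gbp5 and Gbp8 were higher on both, Gbp2b was lower on both and Gbp9 went opposite ways. Of the 30 genes nearest outside the clusters, 3 on each side, 5 were higher on both, 5 lower on both and 20 opposite. Their median was -0.03 and their range -0.18 to 0.19. On chromosome 11, Irgm1 and Tgtp1 lie with Ifi47, and Igtp and Irgm2 with Gm12250. All of these family genes were higher on both arrays, with Gm12250 the lowest at 0.18 ± 0.11. Gm5431, inside the Irgm1 and Tgtp1 cluster but not counted in the families, went opposite ways at 0.02 ± 0.12. It was named after its value was seen. In the chromosome 3 cluster, 4 of 5 genes were higher on both and 1, Gbp2b, was lower on both at -0.20 ± 0.09.

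Other genes of the same families were taken from a list of 17, of which 11 are on the array and 8 were measured. Of these, 5 were higher on both arrays, 1 was lower on both and 0 passed limma, with a median of 0.26. They included Gbp8 (0.40 ± 0.12), Ifi47 (0.41 ± 0.25), Gbp5 (0.27 ± 0.16) and Gvin1 (0.25 ± 0.02), a giant GTPase. Gbp9, next to Gbp4 and Gbp6, went opposite ways at 0.34 ± 0.50. Gbp2b, Gm12250 and Gbp9 were named after their values were seen.

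The signal that induces the GTPases was looked at through its own genes, none of which passed limma. Of 18 genes of the interferon gamma pathway, 8 were higher on both arrays, 1 was lower on both and 9 went opposite ways, with a median of 0.11. The ligand, Ifng, read 140 against 128 in replicate 1 and 144 against 115 in replicate 2 (0.23 ± 0.14). The receptor chains Ifngr1 (-0.03 ± 0.03) and Ifngr2 (-0.06 ± 0.19) and the kinases Jak1 (0.00 ± 0.16) and Jak2 (-0.09 ± 0.78) had means near 0. The transcription factor Irf1 was at 0.11 ± 0.16. Among the targets, Ubd, a ubiquitin-like modifier, was 2.45-fold higher (1.29 ± 0.55), and Cxcl9, a T cell chemokine, and Ido1, which breaks down tryptophan, were at 0.41 ± 0.08 and 0.36 ± 0.24. The members of this pathway without a fixed place in the naming rule, Ifng, the receptors, the kinases and Irf1, were chosen after their values were seen.

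Of 29 measured genes of the type I and III interferon pathways, 20 were higher on both arrays and 9 went opposite ways, with a median of 0.38 and 5 past 1.5-fold on both. The antiviral genes Oasl2 (0.83 ± 0.17), Rsad2 (0.77 ± 0.02), Oas2 (0.74 ± 0.18) and Ifi44 (0.67 ± 0.06) were among these 5. The ligands Ifnb1 and Ifnl3 were not well above background. Of the transcription factors of these pathways, Irf9 was at 0.31 ± 0.04 and Stat2 at 0.26 ± 0.09, both named after their values were seen.

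Of 19 measured genes of autophagy and inflammasomes, which work with the GTPases, 3 were higher on both arrays, or 15.8% beside 16.9% of all genes. A further 6 were lower on both and 10 opposite, with a median of -0.03. Trim21, a ubiquitin ligase, was at 0.53 ± 0.27 and Atg12, which helps to bring GBPs to vacuoles, at 0.39 ± 0.21. The inflammasome genes Il18 (-0.38 ± 0.07) and Casp4 (-0.27 ± 0.19) were lower on both.

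Promoter letters were also set against ratios outside the 10. Of 1124 other measured genes with ISRE letters, 19.1% were higher on both arrays, of 1097 with GAS letters 16%, of 126 with both 19.8%, and of 10717 with neither 15.6%. The medians of these classes lay within 0.02 of each other, at -0.0045 with ISRE letters and -0.013 with neither. ISRE letters were in 5 of 8 other family genes with a window, 10 of 23 type I and III genes, 4 of 12 interferon gamma genes and 1 of 16 partners, against 9.76% of all genes.

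The gene patterns most like that of the 10, by straight distance from the medians of 0.66 and 0.35, were those of Ifi211, Unc5b, Sh3bp1, Rnase6, Lmo4 and AF218659, over 2 arrays. Ifi211 lay nearest, at 0.67 and 0.34, and AF218659 farthest of the 6, at 0.65 and 0.38.

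Some cell markers were higher on the same arrays. Of 14 measured T and NK cell markers, 8 were higher on both arrays and 6 went opposite ways (median 0.20). Cd3g was at 0.52 ± 0.12 and Cd8b1 at 0.26 ± 0.04. The 6 that went opposite ways included Cd3e (-0.02 ± 0.24), Cd8a (0.10 ± 0.47) and Cd247 (0.26 ± 0.52), named after their values were seen. The summed intensity of the 14 was 10290 against 8481 in replicate 1 and 9504 against 8656 in replicate 2, knockout first. Trac has no probe on the array and Ncr1 was not well above background. Of 12 B and plasma cell markers, 8 were higher on both and 4 opposite (median 0.22). Fcmr was at 0.93 ± 0.43 and Ms4a1 at 0.67 ± 0.12. The 4 opposite were Mzb1 (0.17 ± 0.47), Pou2af1 (0.13 ± 1.02), Derl3 (0.10 ± 0.78) and Tnfrsf17 (-0.09 ± 0.18), named after their values were seen. The sum of the 12 was 1.11 and 1.35 times as high in the RNA labelled knockout. Jchain made up 79.3% to 84.9% of that sum, and without it the sum was 1.53 and 1.1 times as high. Of 12 myeloid markers, 3 were higher on both and 9 opposite (median 0.02), and their sum was 0.67 and 1.12 times as high. Lyz2 made up 94.6% to 96.4% of it, and without Lyz2 it was 1.01 and 0.99 times as high. Absorptive epithelium had 3 of 10 higher and 4 lower on both (median -0.05). Lct, at 1.41 ± 0.61 and past 1.5-fold on both arrays, and Fabp2, at 0.70 ± 0.35, were among the 3 higher. Sis, at -0.15 ± 0.16, was among the 4 lower. The sum of this list was 1.1 and 1.03 times as high, or 0.94 and 0.94 times without Fabp2. Endothelium had 0 of 6 higher and 2 lower (median -0.03). Leaving the brightest marker out of a sum was chosen after the data were seen. The part of these cell types in the ratios of the 10 GTPases was not tested.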

How the data were processed

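Intestinal RNA of both genotypes was measured on 2 dye-swapped Agilent arrays (design 014868) on one slide. Intensity values, the mean brightness of each spot and the median of its local background, were taken from the authors' scanner files, made with Feature Extraction 11.5.1.1 per the file headers; the submitters' processing notes name 9.5. The deposited log10 ratio column holds the software's background-subtracted, dye-normalized Cy5 over Cy3, and the deposited value table the same log10 ratios rounded, with 0 columns beyond the 2 arrays. Probe coordinates are those of the files, on mm9; no genome of that build was used, so whether a probe lies in coding sequence or a UTR was not determined.

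Outlier spots, 133 and 222 of 43379, were left out. Background was corrected with normexp (offset 50), ratios were normalized by loess with control spots at weight 0 (R 4.3.3, limma 3.58.1), and their log2 values were signed so that knockout is over wild type. The 29091 probes that 1 genotype showed well above background on both arrays were kept, and the brightest stood for its gene. Symbols of 31441 spots were updated through RefSeq accessions. The limma fit over all genes had 1 residual and 3.01 prior degrees of freedom, with a threshold of 0.05. A dye term would have used up the residual degree. Motifs were counted with Python 3.11.15.

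The members, lists, tests and alternatives were chosen with earlier results of these data known. Named are Gpcpd1, all members with each probe, up to 4 genes per list with the largest smaller absolute ratio of the 2 arrays among those of one sign on both, and the 6 genes nearest to the members' medians; exceptions are said where they stand, and 1 gene of the interferon gamma list that the rule names is not reported here. Alternatives were the scanner's processed ratios, the value table, other background corrections, median centring, outlier spots kept, no filter on dim probes, averaged probes, a surface over row and column removed, and each array left out.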

Additional observations from a re-analysis of the deposited data

How the results depend on the processing

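The genes that limma called numbered 39 with the software's processed ratios, 37 with the deposited value table, 22 with a normexp offset of 0 and 14 with a surface removed, against 0 as reported; the cause was not tested. The count of GTPases at least 1.5-fold higher on both arrays was 1 with median centring, with outlier spots kept or with probes averaged. It was 3 with the processed ratios or the value table, against 2 as reported. On a single array the count was 3 without replicate 1, beside 0.4% of all genes, and 6 without replicate 2, beside 5.18% of all genes. The interferon gamma count was 5 with outlier spots kept, against 8. On a single array, where no test can be made, 9 to 10 of the GTPases, 12 to 13 interferon gamma genes and 7 to 9 of the 19 partner genes were higher, beside 48.3% of all genes without replicate 1 and 50.5% without replicate 2; the GTPase median was 0.35 to 0.66. Without replicate 1 the log2 ratio of Iigp1 was -0.38, and without replicate 2 it was 1.14. With both arrays, the share of all genes higher on both ran from 11.4% with median centring to 20.2% with the processed ratios, so a count of GTPases reads against a shifting background. No paired analysis was possible because there is nothing further to pair: each ratio already sets the genotypes against each other on 1 array, and both arrays lie on one slide, which leaves no block to add. Signal over background limits Gm12250, which read 74.6 to 89.2, and Ifng, since the Irgm1 probe left out for want of signal read 60.7 to 62.2. Probes of near-identical family genes may take up each other's RNA.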
